A study of Homo sapiens with 6 samples.

Results

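The ligands and receptors of the tumour necrosis factor (TNF) superfamily were followed on 6 arrays of MDA-MB-231, a long-established line of human breast cancer cells that is counted among the basal ones. The members were all probe sets whose single annotated gene symbol begins with TNFSF or TNFRSF, or is one of TNF, LTA, LTB, LTBR, FAS, FASLG, CD27, CD70, CD40, CD40LG, NGFR, EDA, EDAR and EDA2R. This gave 96 of 54675 probe sets, for 46 genes, namely 16 ligands, 27 receptors and 3 non-coding RNA genes (TNFRSF10A-DT, TNFRSF10B-AS1 and TNFRSF14-AS1) that carry a receptor's name but encode no receptor. No probe set of CD40LG was analysed here. Another 8 probe sets carry several symbols (of TNFSF12, TNFSF13, TNFRSF6B and TNFRSF10C together with a neighbouring or read-through gene) and are no members.

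In the tested cells a lentivirus delivered GATA3 together with enhanced green fluorescent protein (GFP), and in the control cells a lentivirus delivered GFP alone. Both populations were sorted for GFP and grown in medium with 10% serum, and RNA was taken 2 days after seeding. GATA3 is a zinc finger protein that luminal breast epithelium needs for its differentiation. There were 3 arrays labelled GATA3 and 3 GFP control arrays. The labels do not say whether the replicates were separate cultures, so the spread that the p-values rest on may be technical.

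TNF superfamily ligands are mostly membrane proteins that act as trimers, on the cell surface or after release. Their receptors fall into those with a cytoplasmic death domain, which can recruit FADD and caspases and so start apoptosis, those that bind TRAF adaptors and activate NF-kappaB and stress kinases, and decoy or soluble receptors that bind ligand without passing on a full signal. In epithelium and bone the pair TNFSF11 (RANK ligand) and TNFRSF11A (RANK) drives osteoclast formation and growth of the mammary gland, and TNFRSF11B (osteoprotegerin) is the secreted decoy that binds TNFSF11 and also TNFSF10 (TRAIL).

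The directions below rest on the labels, because no probe set of GATA3 averaged higher in the arrays labelled GATA3. The brightest probe set of GATA3 (209604_s_at) read 7.93, 7.94 and 7.32 in the arrays labelled GATA3, against 9.37, 9.35 and 9.45 in the GFP control (log2 change -1.66, SE 0.18, adjusted p 0.00238). It was lower on every array labelled GATA3. Which of the introduced and the endogenous transcript its probes bind was not tested. A dimmer probe set, 209602_s_at, averaged 3.24 in the arrays labelled GATA3 and 4.73 in the GFP control. It entered the test only through the GFP control, where it is higher, and so adds little. The remaining one, 209603_at, lay under 4 on every array and was not tested. GATA3 replicate 3, whose raw file alone carries another date in its name, stood apart from the rest: it correlated with the other arrays of its group at 0.984 and 0.986, against 0.997 between those, and 0.995 to 0.996 among the GFP control arrays. Its 75th percentile was 7.78, against 7.97 to 8.04 elsewhere. VIM and CD44, which mark this line, averaged 14.72 and 13.62 in the arrays labelled GATA3 and 15.03 and 13.69 in the GFP control by their brightest probe sets. VIM was lower by both of its probe sets (adjusted p 0.0158 and 0.0381) and CD44 by 1 of 12 tested. ERBB2 averaged 9.40 in the arrays labelled GATA3 and 9.56 in the GFP control, and ESR1 4.16 and 4.02, the last with the value 4.02 repeated on 5 arrays. PGR and the leukocyte and endothelial markers PTPRC, CD3E, CD14, ITGAM, PECAM1, CDH5 and VWF reached no more than 2.48 on any array. Of the fibroblast markers, THY1 lay at 2.27 at most, and PDGFRB, at 6.60 in the arrays labelled GATA3 and 6.39 in the GFP control, was over the detection level in both groups and did not pass the threshold. The GFP control values of PDGFRB were nearly the same on all arrays (SD 0.003), so its detection there is doubtful. The probe sets of COL1A1 disagreed. Its probe set 1556499_s_at read 6.62, 6.84 and 7.35 in the arrays labelled GATA3, against 3.70, 4.12 and 4.38 in the GFP control (log2 change 2.87, adjusted p 0.00109), while 217430_x_at averaged 6.57 in the arrays labelled GATA3 and 6.61 in the GFP control (adjusted p 0.746). The part of this marker in the changes below was not tested.

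The promoters of 4 genes that moved in either direction, and of TNFAIP3, the gene with the greatest change among the signalling genes below, are shown so that the motif of the introduced factor and that of NF-kappaB can be looked up beside the values. Each is the 250 bases before the annotated start, 5′ to 3′ in the direction of the gene, from RefSeq (GRCh38.p14). Capitals mark the GATA motif, searched for on both strands as AGATAA and AGATAG and also in the forms that begin with T in place of the first letter (TGATAA and likewise TGATAG), and, in TNFAIP3, the NF-kappaB consensus on either strand; the motifs do not overlap there. They lie at chr13:23570162-23570411 (plus strand) for TNFRSF19, chr10:88990548-88990797 (plus strand) for FAS, chr12:6342077-6342326 (minus strand) for TNFRSF1A, chr3:172523431-172523680 (minus strand) for TNFSF10 and chr6:137867009-137867258 (plus strand) for TNFAIP3.
TNFRSF19: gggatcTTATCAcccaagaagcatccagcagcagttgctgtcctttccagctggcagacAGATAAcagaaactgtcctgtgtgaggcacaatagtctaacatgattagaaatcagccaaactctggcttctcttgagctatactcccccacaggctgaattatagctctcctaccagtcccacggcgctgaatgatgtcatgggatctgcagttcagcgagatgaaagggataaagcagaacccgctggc
FAS: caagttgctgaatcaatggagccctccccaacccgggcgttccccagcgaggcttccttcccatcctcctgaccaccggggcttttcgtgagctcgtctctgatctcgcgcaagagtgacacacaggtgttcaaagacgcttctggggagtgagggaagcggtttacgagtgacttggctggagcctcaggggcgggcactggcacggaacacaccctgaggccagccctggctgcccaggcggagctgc
TNFRSF1A: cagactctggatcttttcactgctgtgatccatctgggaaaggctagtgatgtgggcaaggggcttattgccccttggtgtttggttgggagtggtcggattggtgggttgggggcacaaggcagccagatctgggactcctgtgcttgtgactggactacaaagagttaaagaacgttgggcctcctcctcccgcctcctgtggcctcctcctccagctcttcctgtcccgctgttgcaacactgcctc
TNFSF10: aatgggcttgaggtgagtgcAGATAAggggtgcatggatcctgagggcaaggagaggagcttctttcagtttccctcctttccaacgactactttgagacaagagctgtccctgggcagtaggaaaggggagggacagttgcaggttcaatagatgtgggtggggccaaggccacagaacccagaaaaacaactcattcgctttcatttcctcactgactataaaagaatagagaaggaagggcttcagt
TNFAIP3: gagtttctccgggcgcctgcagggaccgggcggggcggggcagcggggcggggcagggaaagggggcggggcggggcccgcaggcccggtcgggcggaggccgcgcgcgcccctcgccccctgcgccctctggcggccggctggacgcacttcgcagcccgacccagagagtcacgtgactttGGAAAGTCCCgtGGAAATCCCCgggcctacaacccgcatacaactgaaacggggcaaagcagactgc

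The window of TNFRSF19, which rose, held 2 GATA motifs, with their first bases 244 and 191 bases before the start. That of TNFSF10, which fell, held 1, at 230 bases before the start, and those of FAS, which rose, and TNFRSF1A, which fell, held none. The windows of TNFRSF11A, TNFRSF1B and TNFRSF21, which also had calls and are not shown, held no GATA motif either. No window was available for TNFRSF11B, the member with the greatest change, or for TNFRSF10A and CD40. Of 35116 promoter windows of this length, 22.3% held a GATA motif and 5.21% an NF-kappaB consensus. Among the 29 member genes with a window in the table, 10 held a GATA motif and 4 an NF-kappaB consensus. Apart from TNFRSF19 and TNFSF10, the member genes with a GATA motif were not past the threshold or not tested. The window of TNFAIP3 held 2 NF-kappaB matches, which do not overlap, with their first bases 67 and 55 bases before the start. A match is a run of letters, and no binding was measured here.

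Most of the family was not detected in these cells, and the part that was detected consisted mainly of receptors. Expression values come from GCRMA and are taken to be on a log2 scale. A value over 4 was taken as detected, and a probe set was tested if at least 3 of the 6 arrays lay over 4, whatever their group. Of the 96 member probe sets 34 were tested, for 20 genes, and 60 lay at or under 4 on every array. Members dim on most arrays of both groups therefore did not enter the test. Of 27 receptor genes 15 were tested, and of 16 ligand genes 4. The level of one probe set cannot be set against that of another.

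Among the ligands, TNF itself, LTA, FASLG, EDA, TNFSF11, TNFSF13B, TNFSF18 and TNFSF8 lay within 0.1 of the floor of 2.16 on all 6 arrays by every probe set. LTB, TNFSF4, TNFSF14 and TNFSF15 reached at most 2.97, 2.38, 2.28 and 2.39. The ligands of FAS, of TNFRSF1A and of TNFRSF11A were thus not detected in either group. Of the receptors, CD27, EDA2R, EDAR, TNFRSF13B, TNFRSF13C, TNFRSF17, TNFRSF18, TNFRSF25, TNFRSF4, TNFRSF8 and TNFRSF9, most of them known from lymphocytes, reached at most 3.38. NGFR, the neurotrophin receptor, read 2.87, 2.56 and 4.16 in the arrays labelled GATA3 and 2.53 on each GFP control array, and was not tested since only GATA3 replicate 3 lay over 4. Of the 3 non-coding RNA genes, TNFRSF14-AS1 was tested by 1 probe set (log2 change -0.04, adjusted p 0.700), TNFRSF10A-DT was over 4 on GATA3 replicate 3 alone, and TNFRSF10B-AS1 reached 2.21.

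At an adjusted p under 0.05, 15 of the 34 tested member probe sets differed between the groups (44.1%), 9 with higher and 6 with lower values under the GATA3 label. Over all 23785 probe sets tested, 25.3% passed the threshold, 11.3% higher and 14.0% lower. By scaling, the split of the members was 11 higher and 4 lower both after quantile normalization and after median centring of the arrays, and 12 higher and 6 lower after cyclic loess. Over all probe sets the split was 2698 higher and 3329 lower as deposited, 3485 and 3884 after quantile normalization, 3532 and 3333 after median centring, and 3187 and 3575 after cyclic loess. Counted by the brightest probe set, 5 of 20 genes were higher and 3 lower, against 14.8% higher and 14.5% lower of the 10814 genes measured (29.3% in all). Of the 20 genes 4 changed at least 2-fold, where 7.28% of all genes did. The median log2 change of the tested member probe sets was 0.01, against -0.05 over all tested probe sets, and the median size of the change was 0.40, against 0.22. At least 2-fold changes past the threshold were seen for 7 member probe sets, 6 of them higher, where 6.94% of all tested probe sets reached that in either direction. Probe sets of one gene share its transcript and are not independent. The groups did not overlap for 21 of the 34, against 46.0% of all tested probe sets.

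**Figure D1:**
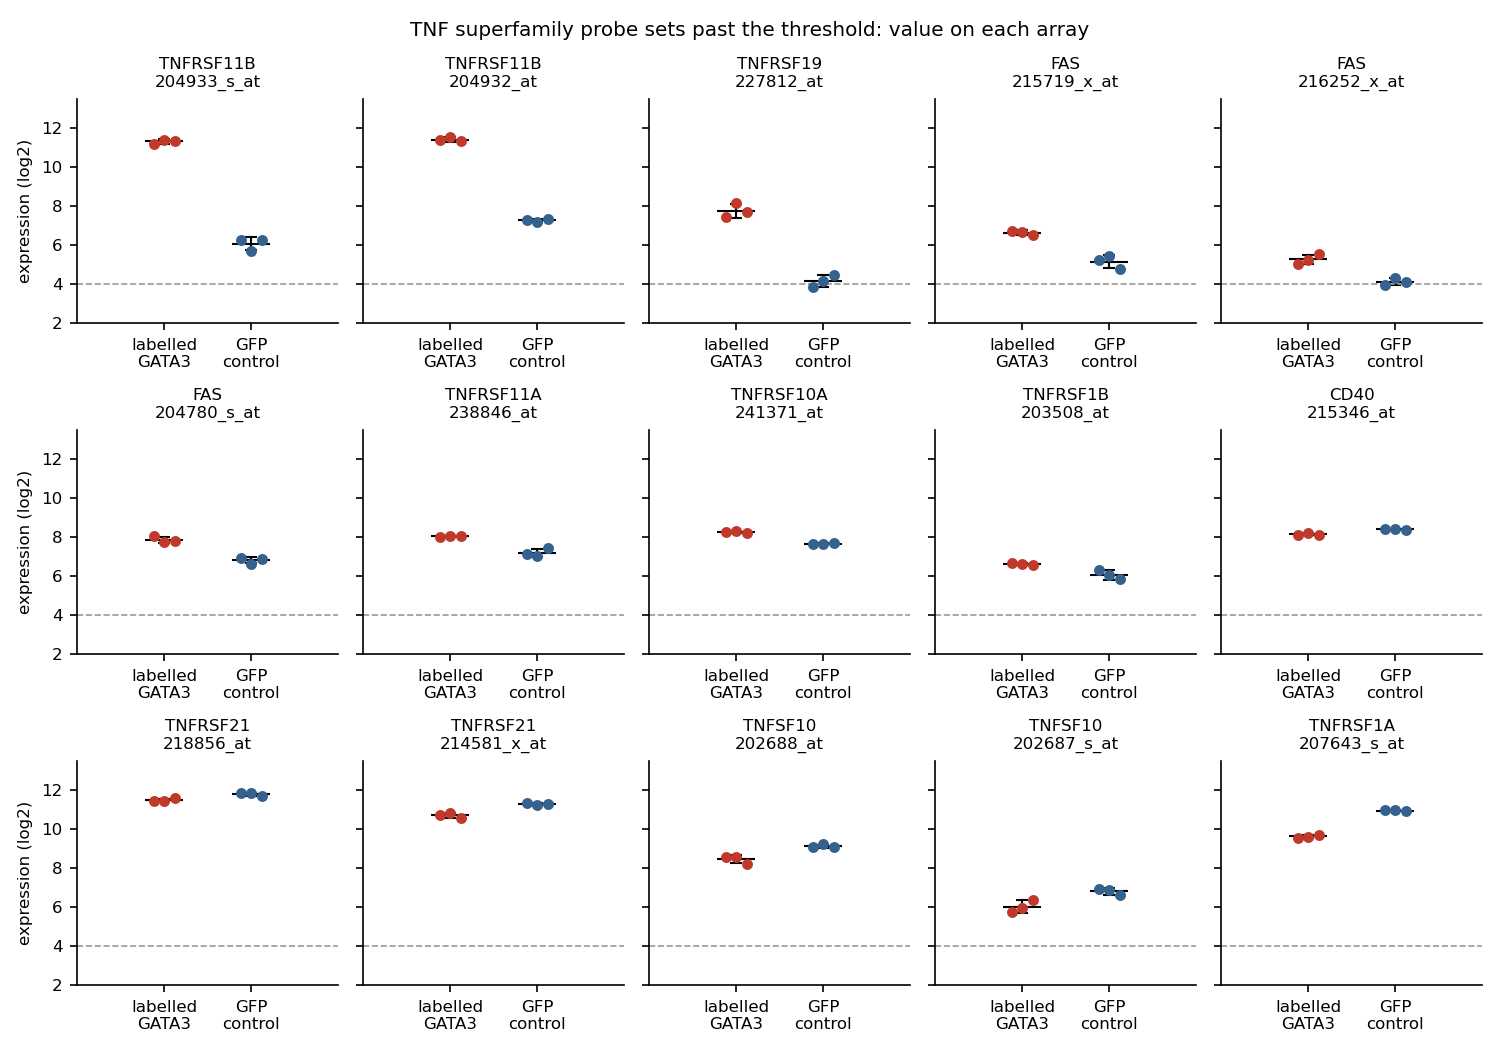
Expression (log2, vertical axis) of the 15 TNF superfamily probe sets past the threshold, with 1 point per array, arrays labelled GATA3 on the left and GFP control on the right of each panel; bars are the mean and SD (n = 3), and the dashed line is the detection level of 4. The 2 probe sets of TNFRSF11B separate the groups by 5.25 and 4.15 on the log2 scale, and TNFRSF19 starts from values around the detection level in the GFP control.

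The decoy receptor TNFRSF11B, osteoprotegerin, showed the greatest change of the tested members. Its probe set 204932_at read 11.38, 11.55 and 11.31 in the arrays labelled GATA3, against 7.26, 7.20 and 7.32 in the GFP control. The second probe set, 204933_s_at, read 11.18, 11.40 and 11.36 in the arrays labelled GATA3, against 6.26, 5.69 and 6.25 in the GFP control. In both, every array labelled GATA3 lay far above every GFP control array, and all 6 arrays were over the detection level. The log2 changes were 4.15 (SE 0.08, 17.8-fold higher, adjusted p 6.36e-06) and 5.25 (SE 0.17, 38.0-fold higher, adjusted p 3.60e-05). In these bulk samples, more cells with a transcript and more transcript per cell cannot be told apart.

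TNFRSF11A, the receptor RANK, rose to a lesser extent. Its brighter probe set (238846_at) read 8.02, 8.05 and 8.04 in the arrays labelled GATA3, against 7.14, 7.02 and 7.41 in the GFP control. The groups did not overlap, and the arrays labelled GATA3 lay close together (log2 change 0.85, SE 0.12, 1.80-fold higher, adjusted p 0.00507). The other probe set (207037_at) repeated the value 4.62 on 4 of the 6 arrays and gave a change of 0.06 (adjusted p 0.583). Of this group of 3 genes, the decoy and the receptor thus rose in the arrays labelled GATA3, and the ligand TNFSF11 was not detected.

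TNFRSF19, also called TROY, a receptor known from embryonic skin and neural tissue that has no death domain, rose, and its control values were close to 4. Probe set 227812_at read 7.44, 8.16 and 7.71 in the arrays labelled GATA3, against 3.82, 4.17 and 4.48 in the GFP control. The groups were far apart, with 1 GFP control array under 4 (log2 change 3.61, SE 0.24, 12.2-fold higher, adjusted p 0.000428). Its other probe sets lay under 4 on all arrays and were not tested. Of these, 223827_at read 2.69, 2.93 and 3.91 in the arrays labelled GATA3, against 2.23, 2.23 and 2.16 in the GFP control. The groups overlapped in 224090_s_at, which read 2.73, 2.80 and 3.08 in the arrays labelled GATA3 and 2.73, 2.24 and 2.71 in the GFP control.

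The death domain receptors went both ways. FAS, the receptor of FASLG and a trigger of apoptosis, rose by all 3 tested probe sets. The brightest (204780_s_at) read 8.04, 7.73 and 7.78 in the arrays labelled GATA3, against 6.94, 6.63 and 6.89 in the GFP control. Probe set 215719_x_at read 6.73, 6.67 and 6.52 in the arrays labelled GATA3, against 5.22, 5.44 and 4.77 in the GFP control. Probe set 216252_x_at read 5.03, 5.24 and 5.52 in the arrays labelled GATA3, against 3.94, 4.31 and 4.11 in the GFP control. For each of them all arrays labelled GATA3 lay above all GFP control arrays. The log2 changes were 1.03 (SE 0.13, 2.04-fold higher, adjusted p 0.00393), 1.50 (SE 0.18, 2.83-fold, adjusted p 0.00347) and, for 216252_x_at, 1.14 (SE 0.16, 2.21-fold, adjusted p 0.00507). One more probe set (204781_s_at), untested because no array lay over 4, averaged 3.82 ± 0.17 in the arrays labelled GATA3 and 2.50 ± 0.06 in the GFP control (SD, n = 3 each).

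TNFRSF1A, the ubiquitous receptor of TNF that carries a death domain, was the member with the greatest fall past the threshold. Its 1 probe set (207643_s_at) read 9.56, 9.59 and 9.72 in the arrays labelled GATA3, against 10.98, 10.96 and 10.91 in the GFP control. The spread within each group was small beside the gap between them (log2 change -1.32, SE 0.06, 2.50-fold lower, adjusted p 9.12e-05). TNFRSF1B, the other TNF receptor, which binds TRAF adaptors and has no death domain, went the other way. It read 6.65, 6.64 and 6.57 in the arrays labelled GATA3, against 6.32, 6.05 and 5.83 in the GFP control (log2 change 0.55, SE 0.14, 1.47-fold higher, adjusted p 0.0351). The groups did not overlap, but the call of TNFRSF1B was lost without GFP control replicates 2 or 3 (adjusted p 0.112 and 0.0785) and without GATA3 replicates 1, 2 or 3 (0.0922, 0.102 and 0.0564). LTBR, the lymphotoxin receptor, which follows TNFRSF1A on chromosome 12 with 1 protein-coding gene between them, read 9.41, 9.41 and 9.14 in the arrays labelled GATA3 and 9.56, 9.43 and 9.40 in the GFP control. Its groups overlapped, and its change of -0.15 (95% interval -0.39 to 0.09, adjusted p 0.313) did not pass the threshold.

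TNFRSF21, a death domain receptor known from neurons and T helper cells, was lower by both probe sets. Probe set 214581_x_at read 10.74, 10.83 and 10.57 in the arrays labelled GATA3, against 11.31, 11.25 and 11.30 in the GFP control (log2 change -0.57, SE 0.08, adjusted p 0.00441). The brighter 218856_at read 11.45, 11.46 and 11.57 in the arrays labelled GATA3, against 11.84, 11.83 and 11.70 in the GFP control (log2 change -0.30, SE 0.06, adjusted p 0.0163). The groups did not overlap in either probe set. The call of 218856_at for TNFRSF21 was lost after median centring (adjusted p 0.168) and without GFP control replicates 1 or 2 (0.0620 and 0.0692) or GATA3 replicates 1 or 2 (0.0554 and 0.0635).

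In the TRAIL group the ligand was lower and the receptors differed among themselves. TNFSF10, TRAIL, which can induce apoptosis through TNFRSF10A and TNFRSF10B, was the only one of the 4 tested ligands past the threshold. Its brightest probe set (202688_at) read 8.57, 8.58 and 8.21 in the arrays labelled GATA3, against 9.09, 9.22 and 9.08 in the GFP control. Every array labelled GATA3 was under every GFP control array (log2 change -0.68, SE 0.12, 1.60-fold lower, adjusted p 0.0120). The call was lost without GFP control replicate 2 (adjusted p 0.0558). Probe set 202687_s_at of TNFSF10 read 5.75, 5.93 and 6.38 in the arrays labelled GATA3, against 6.91, 6.89 and 6.62 in the GFP control (log2 change -0.79, SE 0.19, adjusted p 0.0317). That call was lost without any 1 array other than GATA3 replicate 3 (adjusted p 0.0641 to 0.110), after quantile normalization (0.0521) and after median centring (0.0519). The third (214329_x_at) read 7.38, 7.50 and 6.36 in the arrays labelled GATA3, against 7.80, 7.82 and 8.07 in the GFP control, with GATA3 replicate 3 far under the rest, and did not pass (-0.82, SE 0.32, adjusted p 0.120).

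The 4 TRAIL receptor genes lie next to each other on chromosome 8 with no other protein-coding gene between them. TNFRSF10A, a death domain receptor, rose by 1 of its 3 probe sets. That probe set (241371_at) read 8.27, 8.33 and 8.19 in the arrays labelled GATA3, against 7.66, 7.63 and 7.70 in the GFP control (log2 change 0.60, SE 0.07, 1.51-fold higher, adjusted p 0.00286). Its brightest (231775_at) read 10.36, 10.28 and 9.88 in the arrays labelled GATA3, against 9.53, 9.88 and 9.72 in the GFP control. The groups were barely apart, and neither this change (0.47, adjusted p 0.0818) nor that of 1552648_a_at (0.35, adjusted p 0.105) passed. TNFRSF10B, the other death domain receptor of TRAIL, did not pass by any of 3 tested probe sets. Its brightest (209295_at) read 11.22, 11.28 and 11.42 in the arrays labelled GATA3, against 11.55, 11.45 and 11.39 in the GFP control (log2 change -0.15, 95% interval -0.33 to 0.02, adjusted p 0.169). The membrane decoy TNFRSF10D read 7.43, 7.44 and 7.52 in the arrays labelled GATA3 and 7.42, 7.42 and 7.32 in the GFP control, with groups barely apart and a change of 0.07 (95% interval -0.10 to 0.25, adjusted p 0.485). TNFRSF10C, the decoy held by a lipid anchor, repeated 4.16 on 5 arrays.

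**Figure D2:**
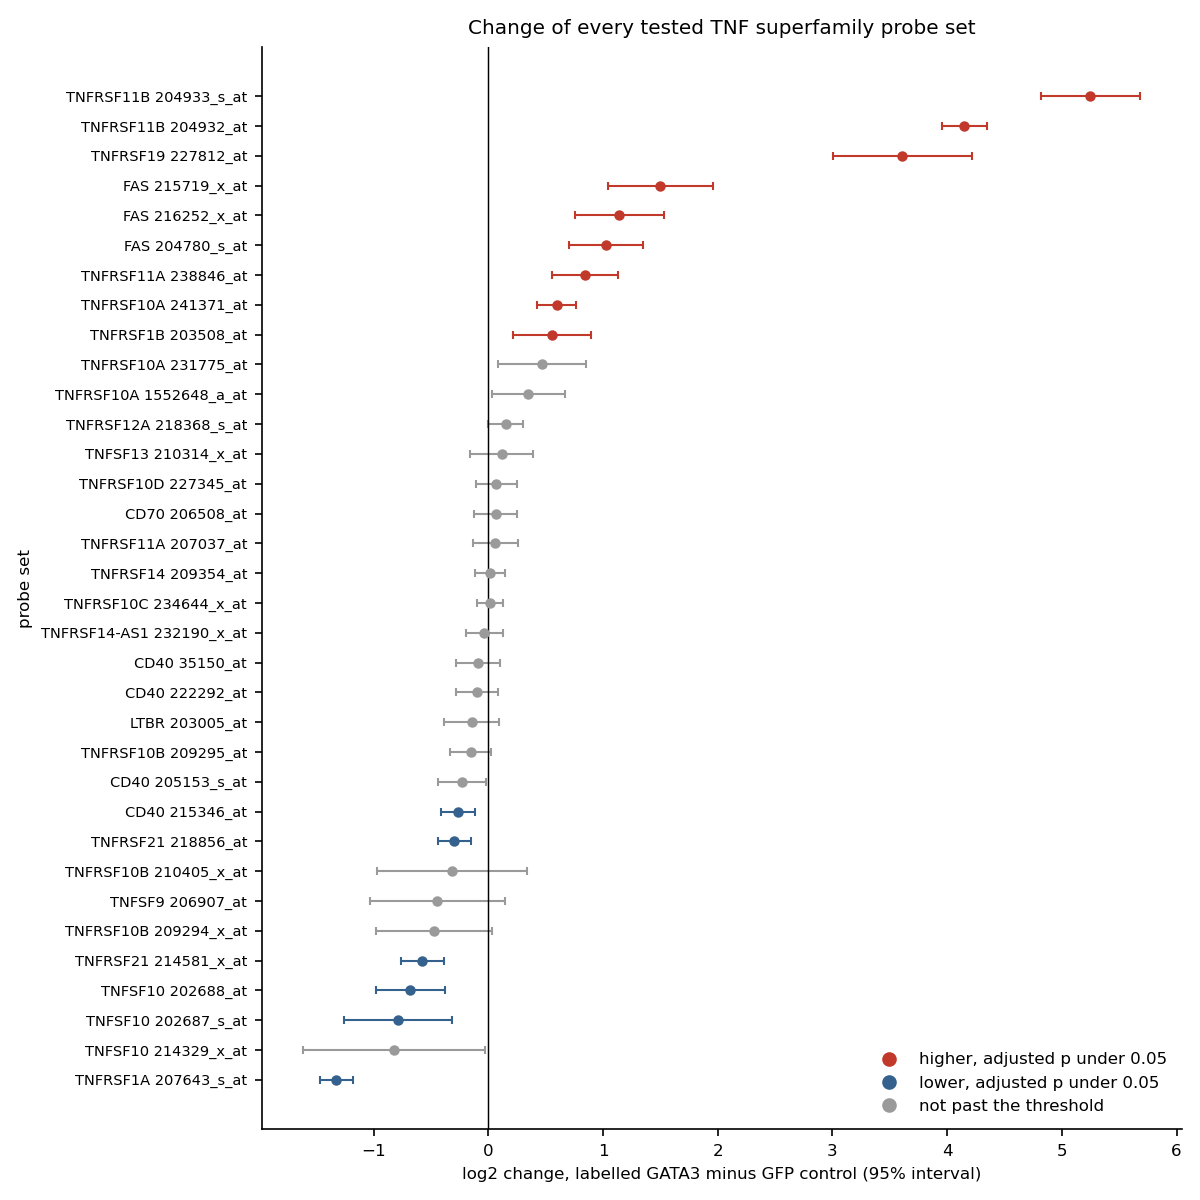
Log2 change (horizontal axis, labelled GATA3 minus GFP control) of all 34 tested TNF superfamily probe sets, 1 per row, with 95% intervals from the fit over all probe sets; red marks probe sets higher, blue lower and grey not past the threshold. The changes run between 5.25 for TNFRSF11B and -1.32 for TNFRSF1A, and probe sets of FAS, TNFRSF11B and TNFRSF21 agree in direction within each gene.

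The remaining tested members changed little. CD40, a TRAF-binding receptor of antigen-presenting cells also found on carcinoma cells, was lower by 1 of 4 probe sets. That probe set (215346_at) read 8.13, 8.19 and 8.10 in the arrays labelled GATA3, against 8.43, 8.41 and 8.38 in the GFP control (log2 change -0.27, SE 0.06, adjusted p 0.0273). This call was lost without any 1 array other than GATA3 replicate 3 (adjusted p 0.0624 to 0.0921), after quantile normalization (0.173) and after median centring (0.185). The brightest probe set of CD40 (205153_s_at) gave -0.23 (adjusted p 0.107). TNFRSF12A, the receptor of TNFSF12 (TWEAK), read 12.42, 12.47 and 12.32 in the arrays labelled GATA3 and 12.34, 12.24 and 12.17 in the GFP control, and its change of 0.15 (95% interval reaching just under 0 and up to 0.30, adjusted p 0.131) did not pass. TNFSF9, the ligand of the T cell receptor TNFRSF9, lay near the detection level, at 3.82, 4.13 and 4.04 in the arrays labelled GATA3 and 4.13, 4.24 and 4.96 in the GFP control (adjusted p 0.222). CD70, TNFSF13 and TNFRSF14 were over 4 but repeated one value on 4 of 6 arrays (5.88, 6.55 and 4.92), so their detection is doubtful. In all, 6 of the 34 tested probe sets repeated a value on at least 4 arrays, to within 0.001. None of those 6 passed the threshold.

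**Figure D3:**
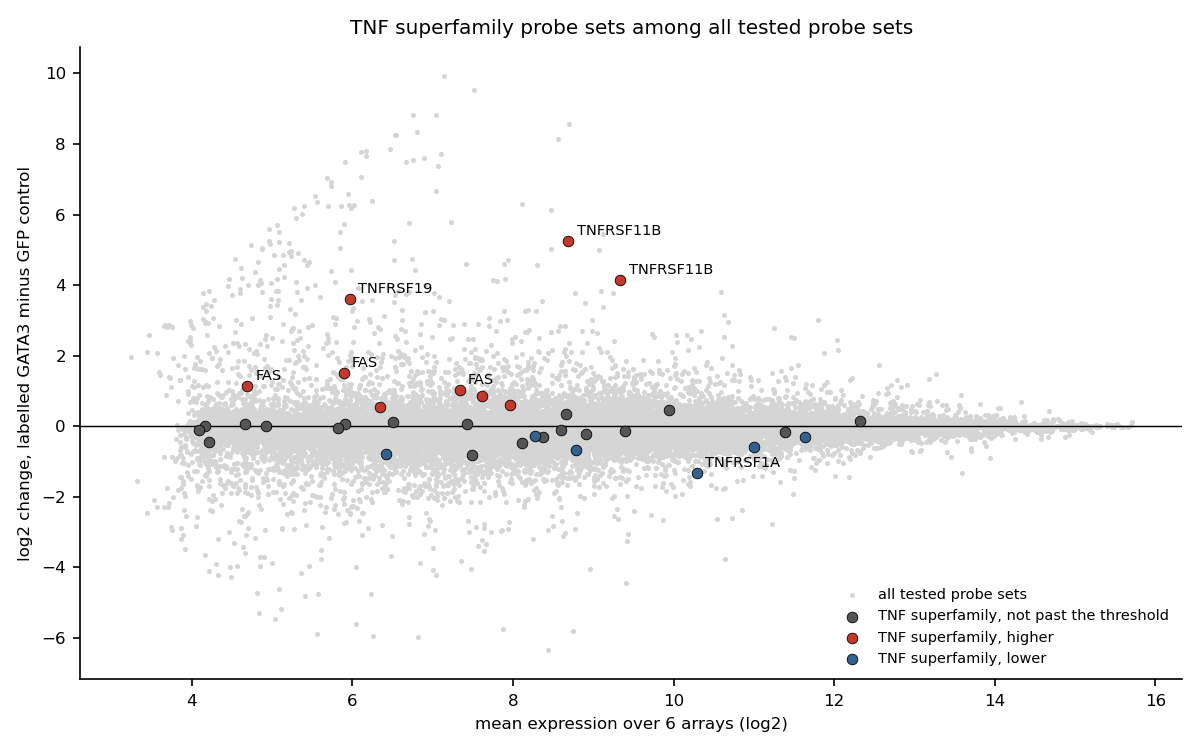
Log2 change (vertical axis, labelled GATA3 minus GFP control) against mean expression over 6 arrays (horizontal axis, log2) for all 23785 tested probe sets in grey, with the 34 TNF superfamily probe sets in colour and those changed at least 2-fold named. TNFRSF11B and TNFRSF19 lie well above the bulk of the grey points, though single grey points reach further, and the unnamed members lie closer to 0.

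Downstream of the receptors, a list of 46 genes for release of ligands, adaptors, kinases, caspases and inhibitors was counted by the brightest probe set of each gene. Of 36 measured, 4 were higher, 6 lower and 26 did not pass the threshold, or 27.8% called against 29.3% of all measured genes. After median centring the split was 7 higher and 6 lower. The median change of the list was -0.03, against -0.02 over all measured genes. SPPL2A, TRAF6 and TANK were not called by their brightest probe set but were lower past the threshold by dimmer ones. For SPPL2A these were 2 of its 3 probe sets, and for TRAF6 and TANK 1 each. All of these calls were lost when certain single arrays were left out. TRAF1, RIPK3, RNF31, TAB1 and EDARADD had no tested probe set, and TRAF2, RIPK1 and BIRC3 were among the genes not analysed here.

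TNFAIP3, an NF-kappaB target that encodes a ubiquitin-editing inhibitor of TNF receptor signalling, had the greatest rise of the list. Its brightest probe set (202644_s_at) read 10.93, 10.95 and 11.07 in the arrays labelled GATA3, against 5.67, 6.18 and 6.05 in the GFP control (log2 change 5.02, SE 0.14, 32.4-fold higher, adjusted p 2.08e-05). The other (202643_s_at) read 10.15, 10.35 and 9.84 in the arrays labelled GATA3, against 4.26, 4.29 and 4.45 in the GFP control (5.78, 55.1-fold higher, adjusted p 1.57e-05). The groups were far apart in both, with all arrays over the detection level. RIPK2, a kinase of the innate immune NOD receptors, rose 2.53-fold (log2 change 1.34, SE 0.06, adjusted p 8.35e-05), and TRAF4, an adaptor known from breast epithelium, rose 1.76-fold (0.82, SE 0.08, adjusted p 0.00130).

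CFLAR, which encodes the caspase inhibitor FLIP, rose by its brightest probe sets alone. Probe set 209939_x_at read 12.09, 12.18 and 12.05 in the arrays labelled GATA3, against 10.94, 10.84 and 10.85 in the GFP control (log2 change 1.23, SE 0.05, 2.35-fold higher, adjusted p 7.10e-05). Probe set 210563_x_at gave 1.27 (adjusted p 0.000126). Its other tested probe sets did not pass, with changes of -0.12 to 0.73, so the probe sets of CFLAR disagree. CASP8, the initiator caspase that FADD recruits, read 9.84, 9.90 and 9.82 in the arrays labelled GATA3 and 9.81, 10.09 and 10.10 in the GFP control. Its groups overlapped, and the change was -0.14 (95% interval -0.37 to 0.08, adjusted p 0.293).

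The falls of the list included MAP3K5 (ASK1), a stress kinase that TRAF proteins activate, and IKBKB, the kinase that marks NF-kappaB inhibitors for breakdown. MAP3K5 (203836_s_at) read 6.44, 6.15 and 6.02 in the arrays labelled GATA3, against 7.24, 7.55 and 7.34 in the GFP control (log2 change -1.17, SE 0.14, 2.26-fold lower, adjusted p 0.00340). IKBKB (209341_s_at) read 8.36, 8.27 and 7.80 in the arrays labelled GATA3, against 9.05, 9.00 and 8.97 in the GFP control (-0.86, SE 0.15, adjusted p 0.0128). No array of one group reached the other in either gene. The call of this probe set of IKBKB was lost without GFP control replicates 1, 2 or 3 (adjusted p 0.0549, 0.0554 and 0.0524). IKBKB was lower by all 3 of its probe sets, and the dimmest, 209342_s_at (-1.13, 2.19-fold lower, adjusted p 0.00617), kept its call without any 1 array. By their brightest probe sets, the other genes of the list that fell were BID, which links caspase 8 to mitochondria, TAB2, BIRC2 and the adaptor FADD. Their changes were -0.75, -0.39, -0.30 and -0.22, and these 4 were picked for mention with their values known. BID fell by all 3 of its probe sets, most by 204493_at (log2 change -1.57, 2.97-fold lower, adjusted p 0.000428), whereas the calls of TAB2, BIRC2 and FADD were each lost when single arrays were left out.

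**Figure D4:**
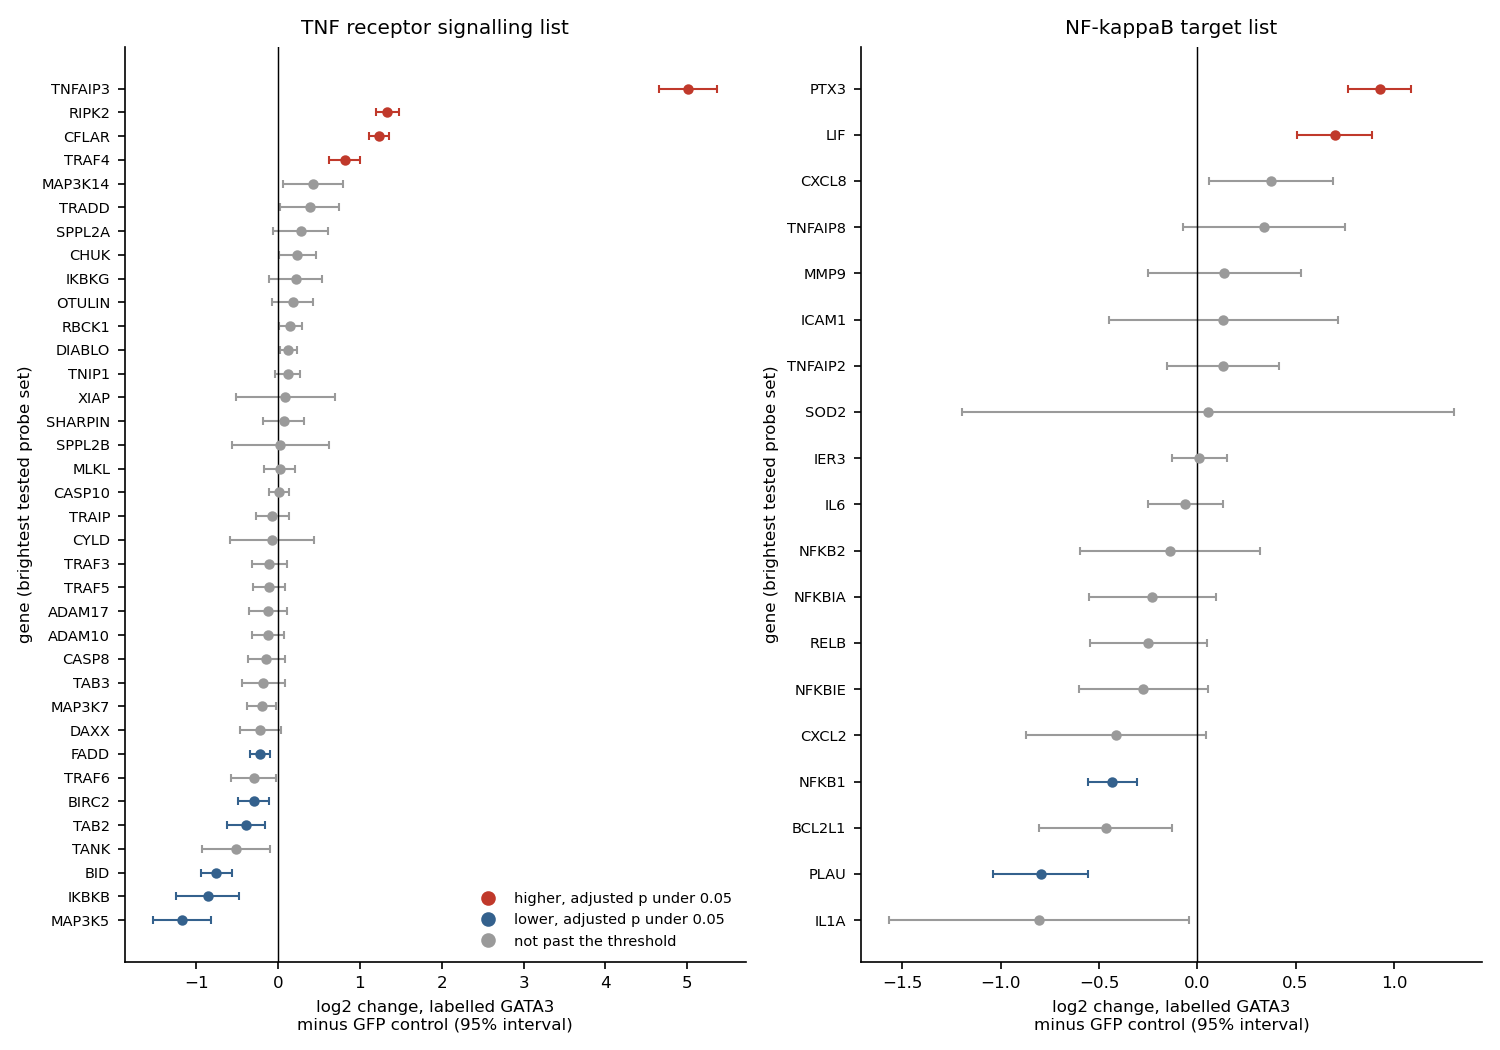
Log2 change (horizontal axis, labelled GATA3 minus GFP control) with 95% intervals for the measured genes of the signalling list (left, 36 genes) and of the NF-kappaB target list (right, 19 genes), each by its brightest tested probe set; red is higher, blue lower and grey not past the threshold, and the horizontal scales differ. TNFAIP3 stands at 5.02 and the next gene of its list at 1.34, while the genes of the target list lie between -0.80 and 0.93. TNFAIP3 is itself an NF-kappaB target but was placed in the signalling list alone.

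Known NF-kappaB target genes that TNF induces were counted in the same way. TNFAIP3, itself such a target and the greatest rise of the signalling list, was not part of this list. The list holds 36 symbols, among them IL8, which is another name of CXCL8, and 19 genes were measured. Of these, 2 were higher, 2 lower and 15 did not pass the threshold (21.1%, against 29.3% of all measured genes). The count is not stable, since 4 were higher and 3 lower after median centring and 8 passed without GATA3 replicate 3. PTX3, a secreted pattern recognition protein, rose 1.90-fold (log2 change 0.93, SE 0.06, adjusted p 0.000475), and the cytokine gene LIF rose 1.62-fold (0.70, SE 0.08, adjusted p 0.00238). PLAU, urokinase, fell 1.74-fold by its brightest probe set (-0.80, SE 0.10, adjusted p 0.00348) and 2.04-fold by 211668_s_at (-1.03, SE 0.07, adjusted p 0.000465). NFKB1, a subunit of NF-kappaB, fell 1.35-fold (-0.43, SE 0.05, adjusted p 0.00279). NFKBIA, the rapid feedback inhibitor of NF-kappaB, read 10.45, 10.35 and 9.98 in the arrays labelled GATA3 and 10.54, 10.51 and 10.41 in the GFP control, with overlapping groups and a change of -0.23 (95% interval -0.55 to 0.09, adjusted p 0.247). CCL2, CCL5, CCL20, CXCL1, CXCL3, CXCL5, CXCL10, IL1B, PTGS2, SELE, VCAM1, TNFAIP6, BCL2A1 and LTF had no tested probe set.

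For a pair of targets the choice of probe set decided the count, as was seen after their values were known. IL1A was not called by its brightest probe set (208200_at, log2 change -0.80, adjusted p 0.114). Its other probe set (210118_s_at) read 7.59, 8.17 and 7.48 in the arrays labelled GATA3 and 3.04 on each GFP control array, at least 13.4-fold higher against the detection level of 4 (adjusted p 6.88e-05). This probe set passed the filter only through the arrays labelled GATA3, where it is high. Its GFP control values were all the same, so they lent no spread of their own to the adjusted p. The log2 changes of the probe sets of IL1A differ in sign. CXCL8, a neutrophil chemokine, gave 0.38 by its brightest probe set (adjusted p 0.0854) and 1.07 by the other (211506_s_at, adjusted p 0.00736), which read 7.78, 7.75 and 7.90 in the arrays labelled GATA3, against 6.47, 6.68 and 7.07 in the GFP control.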

How the data were processed

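Total RNA was labelled with biotin and hybridised to 6 single-colour arrays, per the labels' protocols. The deposited values, read as log2 from their range, were made by the authors with GCRMA, per the submitters' processing notes; its version is not given in the sources used here, and neither the table nor the labels state the scale. Many probe sets lie at a floor (2.16 on every array) or repeat a value of their own. Precision is limited by having 3 arrays a group.

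No scaling was added. Setting aside 62 control probe sets, 23785 probe sets were tested. Symbols came from the platform annotation, and all 46 member symbols stand in a current gene table. The groups were compared with limma 3.58.1 in R 4.3.3 (lmFit, eBayes with an intensity trend, no covariates), with Benjamini-Hochberg adjustment over all tested probe sets and a threshold of 0.05. For gene counts, the brightest tested probe set stood for the gene. A bound was set against 4 where a whole group lay at or under it. The step was tested on simulated data. These had normal noise and few changed probe sets, so repeated values and as many changes as were called here were not covered. The members, lists and rules were chosen with earlier results of these data known. Full values were given for every member past the threshold, and up to 6 genes past it were taken from each list, with CASP8, CFLAR, TNFAIP3 and NFKBIA named whatever their values. Alternatives covered the filter, scaling, variance model, array weights, replicate block, probe set choice and leaving out each array.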

Additional observations from a re-analysis of the deposited data

How the results depend on the processing

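Of the refits of single family genes' changes, 303 kept their direction and their side of the threshold, 15 lost the call and 10 gained one. In another 3, of TNFRSF14 and TNFRSF14-AS1, the sign of a change near 0 turned with no call in either setting. TNFRSF11B, TNFRSF19, TNFRSF1A, TNFRSF11A (238846_at), all 3 tested probe sets of FAS, TNFRSF10A (241371_at) and TNFRSF21 (214581_x_at) passed the threshold in each fit that measured them. With 1 array left out, the number of family probe sets past the threshold was 10 to 17 (8 to 10 higher, 2 to 7 lower), that of all probe sets 3561 to 7096, that of the signalling list 6 to 13 and that of the target list 4 to 8. The upper ends of these ranges (17, 10 and 7, 7096, 13 and 8) all come from leaving out GATA3 replicate 3, the array that stood apart. Lower family probe sets numbered 2 without GFP control replicate 2, and 3 without GFP control replicate 1 or GATA3 replicate 1 or 2. Signalling genes numbered 6 without GFP control replicate 2 or 3. Requiring a 2-fold change left 7 family probe sets (1 lower), 1650 of all probe sets, 4 signalling genes and 0 target genes. Genes of the lists were counted by their brightest probe set, and by it 4 target genes passed without that demand, each changed under 2-fold. Dimmer probe sets of IL1A, CXCL8 and PLAU did pass with changes of at least 2-fold. Array weights, whose estimation did not converge and which gave GATA3 replicate 2 a weight of 11.84 and replicate 3 one of 0.125, gave 10 lower family probe sets, 11837 of all probe sets, 21 signalling genes and 9 target genes. Without a filter on dim probe sets 3613 of all probe sets and 6 signalling genes passed, and with plain _at probe sets alone 6 signalling genes. The calls of TNFRSF1B, TNFRSF21 (218856_at), TNFSF10 (202687_s_at) and IKBKB (209341_s_at) were lost without that filter (adjusted p 0.117, 0.0566, 0.120 and 0.0568). Median centring gave 7 target genes. With the replicate block, 3 family probe sets were lower and 8 higher. The labels do not say whether the replicate numbers pair the samples. Deviations of same-numbered arrays correlated at -0.13, 0.16 and -0.11, and those of differently numbered arrays at -0.25 to 0.23. With 3 arrays a group these values cannot settle whether there was a pairing. Under the block the calls of CD40, TNFRSF1B, TNFRSF21 (218856_at) and TNFSF10 (202687_s_at) were lost, and 4128 of all probe sets passed. Background correction could not be varied from these values, and causes of these shifts were not tested beyond the loss of arrays or probe sets.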

Other observations

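The 8 probe sets with several symbols gave no call. The 7 that were tested had log2 changes of -0.08 to 0.23. Among them, 205611_at of TNFSF12 (TWEAK) averaged 6.47 in the arrays labelled GATA3 and 6.52 in the GFP control, so the ligand of TNFRSF12A, or the read-through transcript that shares its probes, was over the detection level in both groups. The probe set of TNFRSF6B, a soluble decoy of FASLG, averaged 5.17 in the arrays labelled GATA3 and 5.26 in the GFP control.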
